A study of Rattus norvegicus with 18 samples.

Results

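Arg1, Arg2, Nos2, Irg1, Ptgs2 and Odc1, 6 of the 17337 genes counted in rat bone repairing around 3D-printed scaffolds, were followed through all 18 libraries. They were chosen by name, with earlier results of these data known. They encode enzymes that macrophages use to turn arginine, citrate cycle intermediates and arachidonic acid into signalling molecules. All 6 passed the filter on low counts. Arg1 and Irg1 stood highest around the scaffold with amorphous calcium phosphate chitosan nanoparticles at week 2. There, their levels in all 3 libraries lay above those in the 6 libraries from the other scaffolds at that week. Nos2 and Ptgs2 were above all of those 6 in 2 of the 3 libraries, Arg2 in 1, and Odc1 differed little between any groups.

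Arginase, encoded by Arg1 in the cytosol and Arg2 in mitochondria, splits arginine into urea and ornithine. Inducible nitric oxide synthase, encoded by Nos2, turns the same arginine into nitric oxide and citrulline, so the enzymes draw on a shared substrate. Odc1 encodes ornithine decarboxylase, which starts polyamine synthesis from ornithine. Irg1, the older name of Acod1, encodes the mitochondrial enzyme that makes itaconate from the citrate cycle intermediate cis-aconitate in activated macrophages. Ptgs2 encodes cyclooxygenase 2, the inducible enzyme at the head of prostaglandin synthesis, known in bone for its part in fracture healing.

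All samples came from rats of wild type genotype with a critical-size defect of the radius, filled with a scaffold of polycaprolactone (PCL), a degradable polyester. It held no additive (the PCL group), amorphous calcium phosphate chitosan nanoparticles (the ACPC-NP group), or microparticles of calcium phosphate (the CaP group). At week 2 or week 6, tissue up to 1 mm from either end of the implant was taken, marrow and bone were digested with enzymes after lysis of red blood cells, and polyadenylated RNA of the freed cells was sequenced. There were 6 groups of 3 libraries, and no sham or unimplanted group was used here. Whether the 3 libraries of each group are 3 animals is not stated in the labels, so p-values measure the spread between these samples, which may be in part technical. Marrow and bone cells were pooled, and in such bulk samples more cells of a type and more RNA per cell cannot be told apart.

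Libraries held 18880604 to 27186587 counted reads. Levels are given as CPM, the reads of a gene relative to library size, scaled between libraries by the trimmed mean of M values (TMM). The library of ACPC-NP week 2 replicate 3 stood apart from the rest. Its TMM factor was 0.706 against 0.950 to 1.11 in the other 17, and its score on principal component 1 was 91.4, against -23.9 to 25.5 for those 17. The week 2 tests of the 6 genes are therefore given with and without it. Bone and macrophage RNA were present in every library: Col1a1, the main collagen of bone, had 102355 to 643110 reads and Csf1r, the receptor that macrophages need for survival, 4514 to 13571. Marco, a scavenger receptor of some macrophages, was listed at 0 throughout. Alb, the defining transcript of hepatocytes, a cell type rich in Arg1, was also listed at 0 in all 18 libraries. Of the other hepatocyte markers, Apoa1 had 28 to 253 reads, and Ttr, Cps1 and Otc at most 2, 3 and 4. Gata1, an erythroid factor, was at 0 as well while the haemoglobin gene Hbb had at least 424181 reads. A row at 0 here need not mean absent RNA, and the presence of hepatocyte RNA was not tested.

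RefSeq promoter sequences of assembly GRCr8 were held for Irg1, Ptgs2 and Odc1. The 250 bases upstream of the start listed with each promoter are printed for Irg1 and Ptgs2. These 2 were printed because both were called higher at week 2 with all libraries, Irg1 also without replicate 3 and Ptgs2 not. Capitals mark matches to 6 short motifs, searched on both strands. The motifs were C/EBP-type TTGCNNAA, STAT-type TTCNNNGAA, AP-1-type TGANTCA, hypoxia-type ACGTG, and the longer NF-kB-type and STAT6-type motifs.
Irg1 (Acod1), chr15:86286289-86286538, plus strand: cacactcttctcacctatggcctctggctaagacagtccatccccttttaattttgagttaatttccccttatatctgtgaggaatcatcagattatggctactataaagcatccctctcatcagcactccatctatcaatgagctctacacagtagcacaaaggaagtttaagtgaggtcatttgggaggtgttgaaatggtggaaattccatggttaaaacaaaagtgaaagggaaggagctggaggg
Ptgs2, chr13:64713813-64714062, plus strand: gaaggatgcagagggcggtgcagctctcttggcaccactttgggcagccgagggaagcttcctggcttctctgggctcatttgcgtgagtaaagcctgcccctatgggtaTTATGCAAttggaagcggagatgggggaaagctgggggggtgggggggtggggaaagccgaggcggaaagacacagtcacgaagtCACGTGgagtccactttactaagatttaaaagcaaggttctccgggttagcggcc
The Ptgs2 window held 1 C/EBP-type match, TTATGCAA, read on the minus strand and beginning at position -140 from the start. It also held ACGTG on each strand, overlapping within CACGTG from position -55. The Irg1 window held none of the 6 motifs, which says only that these letters are not in this window. Near matches and looser forms of the motifs were not searched for, so related sites may be present. The Odc1 window, at chr6:46058415-46058664 on the plus strand, held 1 ACGTG and no other match. In it 78% of bases were G or C, against 42.4% for Irg1 and 57.2% for Ptgs2. The RefSeq gene records begin at 86286531 for Irg1, 64714063 for Ptgs2 and 46058439 for Odc1. Most of the Odc1 window and the last bases of the Irg1 window therefore lie inside the gene record and not upstream of it. Among 33469 RefSeq windows of the same length, 9.22% held the C/EBP-type motif and 16.6% held ACGTG. The shares for the other motifs were 4.06% for the NF-kB-type, 7.67% for the STAT-type, 6.25% for the STAT6-type and 6.34% for the AP-1-type.

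Arg1, the cytosolic arginase, had the widest range of the 6 genes. Around ACPC-NP at week 2 its level was 21.1, 176 and 1540 CPM in replicates 1, 2 and 3, from 536, 4457 and 27424 reads. Around CaP at week 2 it was 2.96, 6.82 and 9.86 CPM, and around PCL 1.46, 5.58 and 3.50 CPM. The lowest ACPC-NP library was thus above the highest of the 6 others at that week, and the 3 ACPC-NP libraries themselves differed 73.0-fold. At week 6 Arg1 was 4.40, 6.91 and 22.2 CPM around ACPC-NP, 4.97, 1.39 and 3.04 around CaP, and 6.16, 2.65 and 8.28 around PCL. The week 6 groups overlapped, and 1 library there, ACPC-NP replicate 3, was slightly above the lowest ACPC-NP library of week 2.

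Arg2, the mitochondrial arginase, was counted at low depth, from 10 to 250 reads per library. Around ACPC-NP at week 2 it was 0.551, 2.64 and 14.0 CPM, so replicate 3 was the highest of all 18 libraries and replicate 1 among the lowest. Around CaP at week 2 it was 0.699, 0.418 and 1.93 CPM, and around PCL 1.65, 3.60 and 1.499 CPM. At week 6 the 9 libraries lay between 0.713 and 2.92 CPM. Without ACPC-NP week 2 replicate 3, no group of Arg2 values was separate from the others at its week.

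Nos2, the inducible nitric oxide synthase, was 201, 890 and 6367 CPM around ACPC-NP at week 2. Around CaP at week 2 it was 100, 171 and 284 CPM, and around PCL 128, 345 and 217 CPM. Replicates 2 and 3 of ACPC-NP were above every other library of the study, whereas replicate 1 lay inside the range of the other scaffolds. At week 6 the level was 258, 184 and 219 CPM around ACPC-NP, 244, 164 and 290 around CaP, and 354, 111 and 192 around PCL, and the groups overlapped.

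Irg1, which makes itaconate, was 17.9, 95.2 and 802 CPM around ACPC-NP at week 2. It was 4.44, 6.65 and 14.0 CPM around CaP and 4.45, 8.28 and 5.87 CPM around PCL at that week. As for Arg1, every ACPC-NP library was above all 6 others. At week 6 Irg1 was 25.8, 15.4 and 16.4 CPM around ACPC-NP, 9.14, 11.3 and 21.3 around CaP, and 17.2, 10.8 and 16.2 around PCL. ACPC-NP replicate 1 of week 2 therefore lay within the range of its own scaffold at week 6.

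Ptgs2, cyclooxygenase 2, was 50.9, 143 and 1383 CPM around ACPC-NP at week 2. Around CaP it was 24.5, 47.1 and 87.6 CPM and around PCL 33.7, 85.8 and 40.1 CPM at that week. Its pattern was that of Nos2, with replicates 2 and 3 of ACPC-NP above all other libraries and replicate 1 among them. At week 6 it was 59.5, 36.7 and 39.9 CPM around ACPC-NP, 66.4, 55.0 and 53.0 around CaP, and 113, 47.5 and 43.6 around PCL, with overlapping groups.

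Odc1, ornithine decarboxylase, varied least. It was 197, 195 and 321 CPM around ACPC-NP at week 2, 209, 214 and 261 around CaP, and 179, 207 and 207 around PCL. At week 6 it was 233, 200.5 and 202 CPM around ACPC-NP, 234, 213 and 245 around CaP, and 233, 225 and 287 around PCL. The high value of 321 CPM fell to 227 when libraries were scaled by total count alone. RefSeq lists 10 pseudogene copies of Odc1 and 1 of Nos2 in GRCr8, so reads of these genes may be shared with copies, and their counts are uncertain to that extent.

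**Figure D1:**
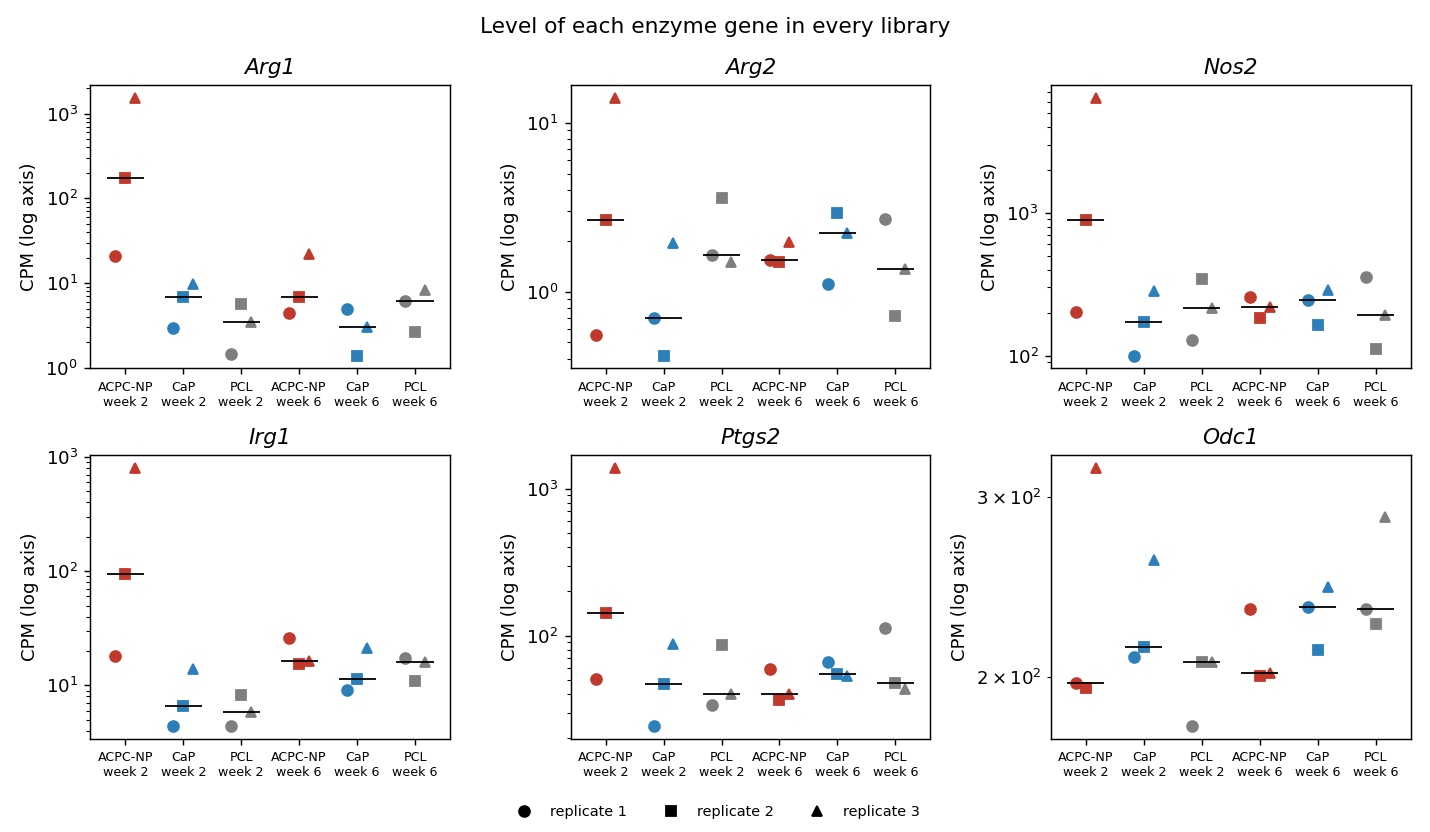
Level of each of the 6 genes in CPM (log axis) in the 18 libraries, by scaffold and week; each point is a library, its shape the replicate number, and the bar the median of the 3. For Arg1 and Irg1 the 3 ACPC-NP points at week 2 lie above all CaP and PCL points of that week, with replicate 3 at 1540 and 802 CPM.

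The study set ACPC-NP against the other scaffolds. The comparison with most libraries at week 2 took ACPC-NP against the average of the CaP and PCL groups, called the CaP-PCL mean. Arg1 was 6.91 ± 0.97 (log2 difference ± SE) higher around ACPC-NP, or 121-fold, and Irg1 5.402 ± 0.766 higher, or 42.3-fold, each with an adjusted p of 0.00625 by edgeR's quasi-likelihood test. Nos2 was 3.59 ± 0.70 higher (adjusted p = 0.0141, edgeR) and Ptgs2 3.31 ± 0.71 higher (adjusted p = 0.0196, edgeR). Arg2 differed by 1.91 ± 0.70 (adjusted p = 0.144, edgeR) and Odc1 by 0.16 ± 0.15 (adjusted p = 0.573, edgeR), and neither passed the threshold of 0.05. The small Odc1 difference changed sign to -0.04 when scaled by total counts and to -0.07 in the voom fit with quality weights. Of the 6 genes, 4 were called higher and 0 lower. By the same rule 4.88% of all 11814 genes tested were called higher and 0.11% lower. The median difference was 3.45 over the 6 genes and -0.02 over all genes. Because the 6 genes were chosen with earlier results of these data known, these shares and medians describe them and do not test them as a set. The ranges of ACPC-NP and of the other 6 libraries were separate for Arg1 and Irg1, and 5.8% of genes were separate in that direction.

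Without ACPC-NP week 2 replicate 3, Arg1 was 4.35 ± 0.71 higher, or 20.4-fold, and Irg1 2.96 ± 0.49 higher, or 7.81-fold, each with an adjusted p of 0.0417 by edgeR. Nos2 was then 1.40 ± 0.51 higher (adjusted p = 0.535, edgeR) and Ptgs2 0.86 ± 0.49 higher (adjusted p = 0.832, edgeR), and their calls were lost. Arg2 differed by 0.07 ± 0.66 and Odc1 by -0.12 ± 0.12. Thus 2 of the 6 genes were called higher without that library, where 0.0837% of 11943 genes were, 10 genes in all. Replicate 3 was the highest library for Arg1 and Irg1, so leaving it out could not make their ranges overlap, and 7.01% of genes had separate, higher ranges then. Both also passed when each of the other 8 libraries of the comparison was left out in turn, with adjusted p no higher than 0.0417. Nos2 lost its call only without ACPC-NP replicate 3. Ptgs2 lost it also without CaP replicate 1 (adjusted p = 0.0544), CaP replicate 2 (0.0532), PCL replicate 1 (0.0565) or PCL replicate 3 (0.0509), all by edgeR. Arg2 passed without ACPC-NP replicate 1, its lowest library, at 2.45 (adjusted p = 0.0166, edgeR).

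**Figure D2:**
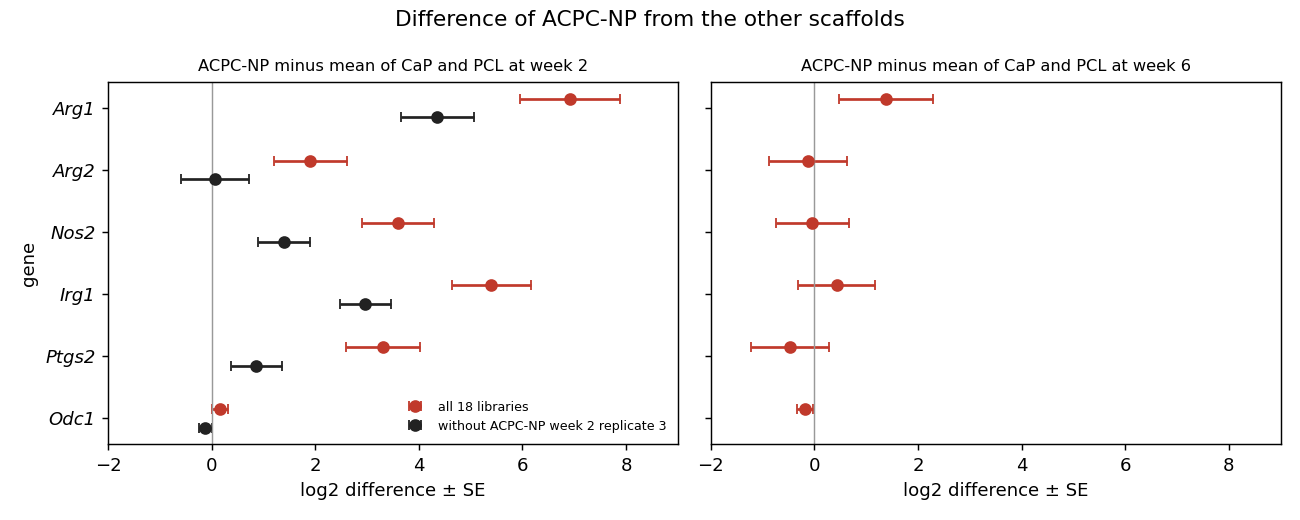
Log2 difference ± SE (edgeR) between ACPC-NP and the CaP-PCL mean for each gene at week 2 (left) and week 6 (right). Red points use all 18 libraries. Black points, drawn in the week 2 panel only, leave out ACPC-NP week 2 replicate 3. Arg1 falls from 6.91 to 4.35 and Irg1 from 5.402 to 2.96 at week 2 without that library, and at week 6 Arg1 is at 1.39 with the other genes between -0.47 and 0.43.

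Against each scaffold alone, the week 2 differences had similar sizes but rested on 6 libraries, and none passed. Against PCL, Arg1 was 7.36 ± 1.35 and Irg1 5.62 ± 1.04 higher around ACPC-NP, both with an adjusted p of 0.0712 by edgeR. Nos2 differed by 3.43 ± 0.90, Ptgs2 by 3.30 ± 0.91, Arg2 by 1.34 ± 0.85 and Odc1 by 0.27 ± 0.17. Against CaP, Arg1 was 6.46 ± 1.28 and Irg1 5.18 ± 1.01 higher, both with an adjusted p of 0.1005 by edgeR. Nos2 differed by 3.75 ± 0.92, Ptgs2 by 3.31 ± 0.92, Arg2 by 2.47 ± 0.89 and Odc1 by 0.06 ± 0.17. With edgeR 0 of the 6 genes and 0% of all genes were called in either comparison. At an unadjusted p under 0.05, 4 of the 6 were higher than around PCL (12.3% of all genes) and 5 of the 6 higher than around CaP (11.6%). DESeq2 called Arg1, Nos2, Irg1 and Ptgs2 higher in both comparisons, where it called 4.99% of genes higher than around PCL and 4.44% higher than around CaP. Voom with quality weights called Arg1, Nos2 and Irg1 in both, beside 2.29% and 2.45% of genes. Without ACPC-NP replicate 3 the differences from PCL and CaP were 4.80 ± 0.93 and 3.90 ± 0.89 for Arg1, 3.18 ± 0.61 and 2.75 ± 0.60 for Irg1, and 1.24 ± 0.60 and 1.55 ± 0.60 for Nos2. Ptgs2 was then at 0.86 ± 0.56 in both, and none passed. EdgeR did call Arg1, Nos2, Irg1 and Ptgs2 higher than around PCL when ACPC-NP replicate 1 or 2 was left out. Against CaP it called these 4 and Arg2 without replicate 1, and Arg1, Nos2 and Irg1 without replicate 2. Both comparisons share the ACPC-NP libraries.

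CaP and PCL were close to each other at week 2. The differences, CaP minus PCL, ran from -1.14 ± 0.88 for Arg2 to 0.90 ± 1.11 for Arg1, and edgeR called 0 of the 6 genes and 0% of all genes. The smallest unadjusted p among the 6 was 0.215, and DESeq2 and voom called 0 genes as well. At an unadjusted p under 0.05, 1.08% of all genes were higher and 0.466% lower. The Odc1 ranges did not overlap, with CaP higher by 0.21 ± 0.17, as for 3.09% of genes. The SE of 0.82 to 1.11 on the log2 scale for Arg1, Arg2, Nos2, Irg1 and Ptgs2 limits what this comparison could detect.

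At week 6 no difference between scaffolds passed for the 6 genes. The difference of ACPC-NP from the CaP-PCL mean was 1.39 ± 0.90 for Arg1 (adjusted p = 0.408, edgeR), and 0.43 ± 0.74 for Irg1, -0.04 ± 0.71 for Nos2, -0.47 ± 0.74 for Ptgs2, -0.12 ± 0.75 for Arg2 and -0.18 ± 0.15 for Odc1. Arg1 was 0.41 higher without ACPC-NP week 6 replicate 3, its highest library at that week. With all libraries the mean of Arg1 was 11.2 CPM around ACPC-NP, 3.13 around CaP and 5.70 around PCL, a difference of 1.81 ± 1.12 from CaP (adjusted p = 0.609, edgeR) and 0.97 ± 1.08 from PCL (adjusted p = 0.649, edgeR). In the 4 comparisons between scaffolds at week 6, edgeR called 0 of the 6 genes and 0% of all genes. None of the 6 had an unadjusted p under 0.05 in edgeR. Of all genes, 9.62% were higher and 10.9% lower by that rule against the CaP-PCL mean, 9.23% and 12.7% against PCL, 4.38% and 4.96% against CaP, and 0.914% and 1.66% for CaP against PCL. DESeq2 and voom called 0 of the 6 genes at week 6. Against the CaP-PCL mean, DESeq2 called 3.28% of all genes higher and 3.86% lower, and voom 15% and 14.3%.

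Around ACPC-NP, the 4 genes called at week 2 had lower mean levels at week 6, but the change did not pass in edgeR. The change from week 2 to week 6 was -5.70 ± 1.24 for Arg1 and -3.98 ± 0.95 for Irg1, both with an adjusted p of 0.0870 by edgeR. It was -3.50 ± 0.91 for Nos2 (adjusted p = 0.0917, edgeR) and -3.53 ± 0.93 for Ptgs2 (adjusted p = 0.0924, edgeR). EdgeR thus called 0 of the 6 genes, beside 0.00846% of all genes lower, whereas DESeq2 and voom each called these 4 lower, beside 4.26% and 6.47% of genes. At an unadjusted p under 0.05, 4 of the 6 were lower, against 12.5% of genes. Without ACPC-NP week 2 replicate 3 the changes were -3.13 ± 0.87 for Arg1, -1.54 ± 0.59 for Irg1, -1.29 ± 0.60 for Nos2 and -1.08 ± 0.56 for Ptgs2, with adjusted p of 0.303 to 0.559 by edgeR. EdgeR called all 4 lower when ACPC-NP week 2 replicate 1 was left out, at -6.27 for Arg1, -4.54 for Irg1, -4.04 for Nos2 and -4.07 for Ptgs2. The week 2 and week 6 ranges overlapped for each of these genes.

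Around PCL, Irg1 lay between 4.45 and 8.28 CPM at week 2 and between 10.8 and 17.2 CPM at week 6. The ranges were separate, but the difference of 1.25 ± 0.89 did not pass (adjusted p = 0.673, edgeR). Odc1 ranges around PCL were separate too, with a difference of 0.33 ± 0.17 (adjusted p = 0.549, edgeR). By comparison 7.76% of all genes had separate, higher ranges at week 6 around PCL, and edgeR called 0% of genes (5.97% were higher at an unadjusted p under 0.05). Voom called Odc1 there, at 0.42 (adjusted p = 0.0302), among 8.96% of genes called higher. Around CaP the changes ran from -1.05 ± 1.11 for Arg1 to 1.02 ± 0.88 for Arg2, and edgeR called 0 of the 6 genes and 0% of all genes. At an unadjusted p under 0.05, 1.74% of all genes were higher and 3.09% lower there.

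The difference of ACPC-NP from the other scaffolds was itself compared between the weeks. From week 2 to week 6 it changed by -5.53 ± 1.39 on the log2 scale for Arg1 and -4.97 ± 1.13 for Irg1, both with an adjusted p of 0.132 by edgeR. For Nos2 and Ptgs2 the values were -3.63 ± 1.05 and -3.78 ± 1.07, with an adjusted p of 0.136 each by edgeR, so none passed. EdgeR called 0% of all genes for this interaction. At an unadjusted p under 0.05, 4 of the 6 genes were lower, against 11.6% of genes. DESeq2 called the same 4 genes lower, beside 3.26% of genes, and voom did so beside 6.81%. EdgeR called these 4 when ACPC-NP week 2 replicate 1 was left out. Without replicate 3 the values were -2.96 ± 1.03 for Arg1, -2.53 ± 0.70 for Irg1, -1.43 ± 0.71 for Nos2 and -1.32 ± 0.67 for Ptgs2, with adjusted p of 0.349 to 0.520 by edgeR.

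The median level was highest around ACPC-NP at week 2 for all but Odc1, with all 3 libraries. For Arg2 this rests on replicate 3, since the mean of the other 2 libraries, 1.60 CPM, was below the medians of CaP at week 6 (2.23) and PCL at week 2 (1.65). For Arg1 the median of 176 CPM was followed by ACPC-NP at week 6 (6.91), CaP at week 2 (6.82), PCL at week 6 (6.16), PCL at week 2 (3.50) and CaP at week 6 (3.04). For Irg1 the median of 95.2 CPM was followed by the 3 week 6 groups, ACPC-NP (16.4), PCL (16.2) and CaP (11.3), and then by CaP (6.65) and PCL (5.87) at week 2. Neighbours in these orders overlapped in range after the first place. All 10 pairs of those groups overlapped in range for Arg1, Arg2, Nos2 and Ptgs2. For Irg1 6 of 10 pairs overlapped and for Odc1 7 of 10. Separate ranges are not rare with 3 libraries per group: 3.09% of all genes were separate and higher for CaP against PCL at week 2. Around PCL 7.76% were separate and higher at week 6 than at week 2. A share of all genes over the 10 pairs is not given, so these counts are a description only. In those 15 libraries Arg1 lay between 1.39 and 22.2 CPM, Nos2 between 100 and 354, Irg1 between 4.44 and 25.8, and Ptgs2 between 24.5 and 113. ACPC-NP at week 2 had 2 of its 3 libraries above all 15 for each of these 4 genes.

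The balance between the arginine enzymes was read from the counts of the same library, which does not depend on scaling. Per 100 Nos2 reads there were 10.5, 19.7 and 24.2 Arg1 reads in the ACPC-NP libraries at week 2. The range was 2.96 to 3.995 around CaP and 1.14 to 1.62 around PCL at that week, so the 3 groups were separate, and replicate 1, which had an ordinary Nos2 level, shared the high ratio. At week 6 the ratio was 1.70 to 10.2 around ACPC-NP, 0.852 to 2.04 around CaP and 1.74 to 4.32 around PCL. Irg1 reads per 100 Nos2 reads were 8.93 to 12.6 around ACPC-NP at week 2, 3.90 to 4.93 around CaP and 2.40 to 3.48 around PCL, and 3.74 to 10.01 over the week 6 libraries. Ptgs2 behaved otherwise: its reads per 100 Nos2 reads were 16.1 to 25.3 around ACPC-NP, 24.4 to 30.9 around CaP and 18.5 to 26.4 around PCL at week 2, and these ranges overlapped. These ratios are a description and were not tested.

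**Figure D3:**
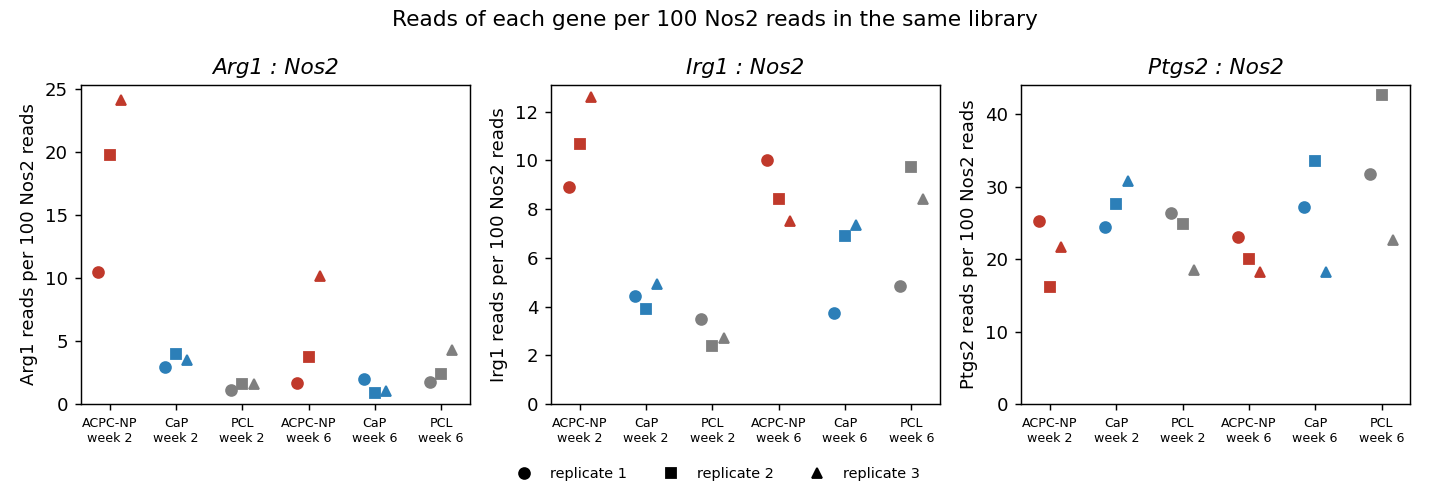
Reads of Arg1, Irg1 and Ptgs2 per 100 Nos2 reads in the same library, by scaffold and week; each point is a library and its shape the replicate number. At week 2 the ACPC-NP points lie above the CaP and PCL points of that week for Arg1 (10.5 to 24.2) and Irg1 (8.93 to 12.6), while for Ptgs2 the ranges overlap, 16.1 to 25.3 around ACPC-NP.

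Nos2 and Ptgs2 followed each other closely across libraries. Pearson's r of their log2 CPM was 0.96 over 18 libraries, 0.87 over 17 without ACPC-NP week 2 replicate 3, and 0.81 over the 15 without any ACPC-NP week 2 library. Arg1 and Irg1 had r of 0.90, 0.74 and 0.41 over the same sets, and Arg1 and Arg2 0.55, 0.07 and 0.01. These values describe libraries that share groups and processing, and no p was computed for them.

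The genes around each enzyme were described through 7 lists of 106 genes, of which 105 were in the table and 94 were tested. In ACPC-NP against the CaP-PCL mean at week 2, edgeR called 10 of the 94 higher and 0 lower, so 10.6% were higher, against 4.88% of all genes. DESeq2 called 20 higher and 0 lower, where it called 7.44% and 0.569% of all genes. Voom called 11 and 2, where it called 5.79% and 1.74%. At an unadjusted p under 0.05, 30 were higher and 3 lower, against 14.9% and 4.4% of all genes. Without ACPC-NP week 2 replicate 3, edgeR called 0, with 11 higher and 2 lower at an unadjusted p under 0.05, against 4.84% and 2.05% of all genes. The counts per list are small and are read against the same 4.88%. The lists were also chosen with earlier results of these data known, so their shares are a description and not a test.

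For the supply of arginine, 2 of 9 genes rose, and 0 passed without replicate 3. Slc7a2, the cationic amino acid transporter CAT2 that brings arginine into activated macrophages, was 37.0, 128 and 851 CPM around ACPC-NP at week 2. It was 9.54, 8.99 and 17.99 CPM around CaP and 7.55, 17.8 and 11.5 CPM around PCL, so the ranges were separate. Slc7a2 was 4.79 ± 0.71 higher (adjusted p = 0.00625, edgeR), and 2.75 higher without replicate 3 (adjusted p = 0.0712, edgeR). Slc7a7, a light chain of the transporter that exchanges cationic for neutral amino acids, was 1.11 ± 0.26 higher (adjusted p = 0.0287, edgeR), and 0.48 higher without replicate 3 (adjusted p = 0.601, edgeR). Ass1 and Asl, which rebuild arginine from citrulline, differed by -0.28 ± 0.24 and 0.02 ± 0.18. The list's median was 0.03, close to the -0.02 of all genes.

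Downstream of ornithine no gene passed in edgeR. Of the 7 tested genes of ornithine use and proline synthesis 0 were called (median -0.28), 3 were lower at an unadjusted p under 0.05, and DESeq2 called 0 and voom 1. The smallest p was that of Slc25a2, a mitochondrial ornithine carrier, at -0.63 ± 0.25 (adjusted p = 0.185, edgeR), and -0.85 without replicate 3. Of the 14 polyamine genes edgeR called 0 (median 0.10), 3 were higher at an unadjusted p under 0.05, and DESeq2 called 2 higher and voom 1. The closest was Smox, spermine oxidase, at 136.9, 151 and 520.4 CPM around ACPC-NP at week 2, 1.02 ± 0.32 higher (adjusted p = 0.0844, edgeR) and 0.11 higher without replicate 3. Of 12 genes of nitric oxide synthesis and its cofactor tetrahydrobiopterin, 0 passed in edgeR (median -0.09), 2 were higher at an unadjusted p under 0.05, and DESeq2 called 1 higher and voom 0. Gchfr, the feedback regulator of the enzyme that starts cofactor synthesis, came closest at 0.74 ± 0.23 (adjusted p = 0.0724, edgeR), and was at 0.40 without replicate 3.

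Around itaconate, 1 of 17 genes of the citrate cycle and itaconate breakdown was called higher, or 5.88%, near the 4.88% of all genes, and the list median was 0.05. This was Aco1, the cytosolic aconitase and iron regulatory protein, at 0.54 ± 0.13 (adjusted p = 0.0294, edgeR), and at 0.39 without replicate 3 (adjusted p = 0.465, edgeR). The succinate dehydrogenase subunits Sdha, Sdhb, Sdhc and Sdhd, parts of the enzyme that itaconate is known to inhibit, differed by 0.11 to 0.31 and did not pass.

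In the prostaglandin pathway 3 of 17 genes rose, with a list median of 0.37. Ptges, the inducible prostaglandin E synthase that works downstream of cyclooxygenase 2, was 2.72, 13.4 and 182 CPM around ACPC-NP at week 2. Around CaP it was 2.30, 2.01 and 4.30 CPM and around PCL 1.53, 3.37 and 1.87 CPM, so its replicate 1 was within their range and replicate 3 far above. Ptges was 4.69 ± 0.82 higher (adjusted p = 0.0108, edgeR), and 1.65 higher without replicate 3 (adjusted p = 0.387, edgeR). Ptger2, a receptor for prostaglandin E2, was 2.54 ± 0.51 higher (adjusted p = 0.0150, edgeR) and Tbxas1, thromboxane synthase, 1.34 ± 0.29 higher (adjusted p = 0.0199, edgeR). Without replicate 3 they were 0.92 and 0.81 higher, with adjusted p of 0.535 and 0.443 by edgeR. Ptgs1, the constitutive cyclooxygenase, differed by -0.34 ± 0.26.

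Of 18 receptors and transcription factors known to act on the 6 enzymes, 4 rose, and the list median was 0.88. Ifngr2, a chain of the interferon gamma receptor, was 1.34 ± 0.30 higher (adjusted p = 0.0239, edgeR). Cebpb, the C/EBP beta factor of macrophage activation, was 2.29 ± 0.56 higher (adjusted p = 0.0311, edgeR). Hif1a, the hypoxia factor, was 1.09 ± 0.27 higher (adjusted p = 0.0316, edgeR) and Il13ra1, a receptor chain for interleukins 4 and 13, 1.37 ± 0.34 higher (adjusted p = 0.0329, edgeR). Without ACPC-NP week 2 replicate 3 these 4 differences were 0.43, 0.49, 0.38 and 0.56, and the list median was 0.19. Irf8, a factor of the interferon response, differed by 0.12 ± 0.15. The cytokine genes Il4, Il13 and Ifng and the receptor gene Il4ra were on this list but not among the genes tested.

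**Figure D4:**
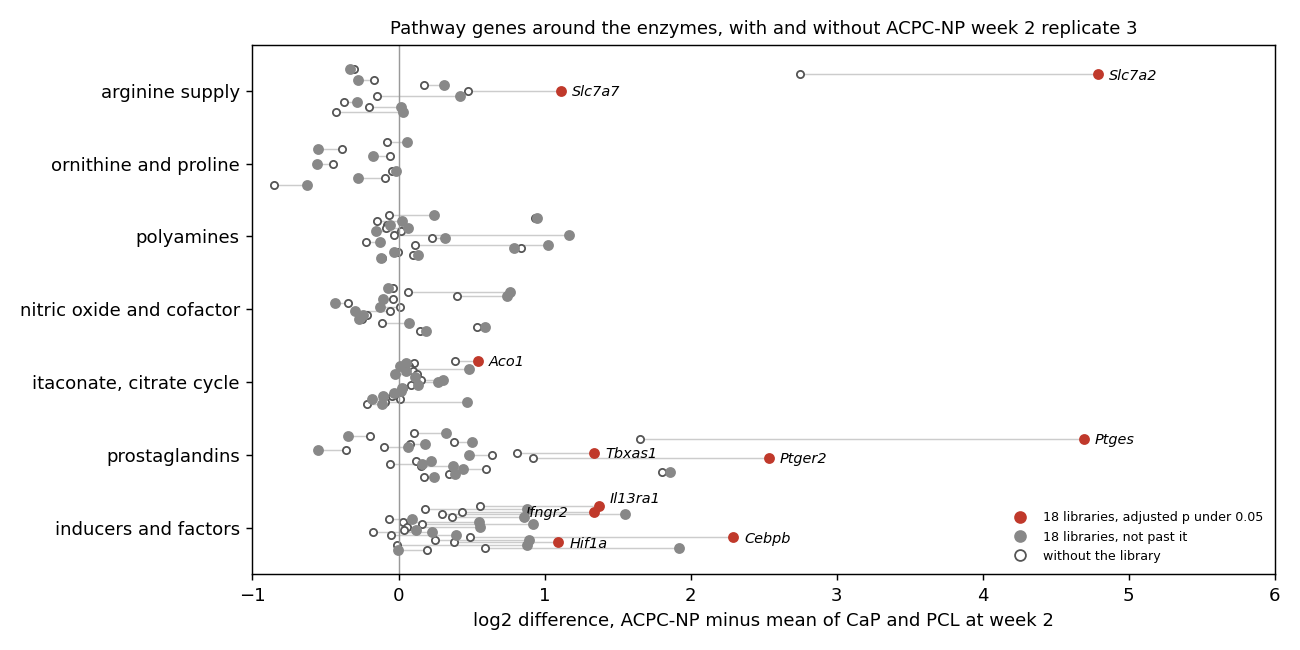
Log2 difference of ACPC-NP from the CaP-PCL mean at week 2 for the 94 tested genes of 7 pathway lists; filled points use all 18 libraries (red, adjusted p under 0.05 by edgeR) and open points leave out ACPC-NP week 2 replicate 3. The 10 red points shift left without that library, Slc7a2 from 4.79 to 2.75 and Ptges from 4.69 to 1.65.

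Some markers of macrophages were higher with the enzymes. Of 18 macrophage and monocyte markers 16 were tested, and Msr1, Gpnmb, Cd68, Cd14, Csf1r, Mertk and Mrc1, 7 of the 16, were called higher around ACPC-NP at week 2 by edgeR, where 4.88% of all genes were. Without replicate 3 edgeR called 0, and 6 were higher at an unadjusted p under 0.05 (4.84% of all genes). The other 9 did not pass. Among them Cd163, the complement genes C1qa, C1qb and C1qc, Lyz2 and Ly86 had values below 0, from -0.31 to -0.02, and Adgre1, Aif1 and Trem2 were at 0.54, 0.86 and 1.53. The summed level of the list was 9870, 10009 and 19876 CPM in the 3 ACPC-NP libraries in order of size, 8725 to 9498 CPM around CaP and 8776 to 9766 CPM around PCL, so the ranges were just separate. Gpnmb alone, a glycoprotein of macrophages and osteoclasts, made up 10020.6 of the 19876 CPM. Without Gpnmb, left out after its values were seen, the sum was 8805, 7934 and 9855 CPM in ACPC-NP replicates 1, 2 and 3, 8480 to 9219 CPM around CaP and 8451 to 9499 CPM around PCL, and the ranges overlapped. With Gpnmb, at week 6 it was 9679 to 11156 CPM around ACPC-NP, 6014 to 10944 around CaP and 5772 to 12844 around PCL. The sum differed 2.01-fold between the ACPC-NP libraries of week 2, and 1.24-fold without Gpnmb. Lyz2 alone made up 6265 of the 9855 CPM left in replicate 3, and lay between 4607 and 10650 CPM over the 18 libraries. Without Gpnmb the sum thus follows mainly Lyz2 and does not stand for each macrophage marker. The enzyme genes differed 73.0-fold for Arg1, 44.7-fold for Irg1, 31.7-fold for Nos2, 27.2-fold for Ptgs2, 25.5-fold for Arg2 and 1.65-fold for Odc1. Of the immediate early and digestion stress genes, 4 of 12, Hspa1b, Hspa1a, Dusp1 and Junb, were called higher by edgeR, and 0 without replicate 3, where 1 was higher at an unadjusted p under 0.05. Their sum was 1972, 2876 and 11901 CPM over the ACPC-NP libraries in order of size, against 1357 to 3352 around CaP and 1546 to 2958 around PCL. The osteoclast list, with 5 of 9 called higher by edgeR and 0 without replicate 3, where 7 were higher at an unadjusted p under 0.05, summed to 1625 to 2209 CPM against 1227 to 1267 around CaP and 1222 to 1374 around PCL. Neutrophil granule genes, 0 of 13 called by edgeR, DESeq2 or voom and 1 higher at an unadjusted p under 0.05, summed to 22511 to 24332 CPM around ACPC-NP, 23908 to 31950 around CaP and 26306 to 29736 around PCL. Of the other marker lists, edgeR called 2 of 11 lymphoid genes higher, Prf1 and Cd8a, and 1 of 10 osteoblast and bone matrix genes, Spp1. None of these was called without replicate 3. In the chondrocyte, fibroblast and stroma, endothelial, erythroid, skeletal muscle and hepatocyte lists edgeR called 0 higher. The part of these cell types and of digestion stress in the enzyme differences was not tested.

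The genes most like each enzyme were those with the highest Pearson r of log2 CPM over the 17 libraries without ACPC-NP week 2 replicate 3, among 10086 other tested genes of mean log2 CPM at least 1 (10087 for Arg2). For Arg1 they were Ugcg (r = 0.90, and 0.93 over 18 libraries), Vmp1, Cxcl3, Tgm1 and Ctsl. For Nos2 they were Ets2 (0.95 and 0.98), Tnfrsf1b, Sod2, Ndfip2 and Map4k4, and for Ptgs2 Pfkfb3 (0.95 and 0.99), Ets2, Arrdc3, Zfand2a and Snx18. Ets2 was thus on the lists of both. For Irg1 they were Clec4e (0.92 and 0.97), Il10rb, Ccl3, Sod2 and Ebi3. For Arg2 the closest was Cd93, at a lower r of 0.72, followed by Myd88, Ctsc, Rapgef5 and Dgat2. For Odc1 it was Ube2b (0.90 and 0.93), followed by Fbxo34, whose r of 0.87 dropped to 0.24 over 18 libraries, Cldnd1, Akirin2 and Vipr1. All these genes were picked for their high r. The 17 libraries still include ACPC-NP week 2 replicates 1 and 2, and r without that group is not given for these genes.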

How the data were processed

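The submitters' processing notes name bcl2fastq 2.20.0, the aligner STAR 2.7.9a with build Rnor_6.0, and featureCounts of Subread 2.0.1. Annotation and strand setting: not given in the sources used here. The authors deposited a table of raw read counts per gene symbol and a table of normalised values, of unit signal: each value was the count divided by 1 size factor per library, checked to a tolerance of 1e-06, and it was not tested.

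Counts were tested with edgeR 4.0.16 in R 4.3.3: filterByExpr (minimum count 10, minimum total 15) left 11814 genes with 99.98% of counts, TMM scaling, 1 term per group over 18 libraries, a robust quasi-likelihood fit, and Benjamini-Hochberg adjustment over all genes within each of 12 comparisons at a threshold of 0.05. The common biological coefficient of variation was 26.03%. SE is the log2 difference divided by the square root of F. Log2 CPM used a prior count of 2. No pair within a group was a duplicate (lowest chi-square per degree of freedom 30.8). Counts of 11814 genes were simulated for ACPC-NP against the CaP-PCL mean at week 2, from 1 common profile with the estimated spread of each gene. No simulated library stood apart as ACPC-NP week 2 replicate 3 did, so the figures do not cover that case. On these counts edgeR found 60 of 100 true 2-fold differences and 87 of 100 true 4-fold ones and made 2 false calls. DESeq2 found 69 and 88 and made 32 false calls, and voom found 59 and 87 and made 5. With no gene changed, DESeq2 made 13 calls and edgeR and voom 0.

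The 6 genes, the lists, the comparison with the CaP-PCL mean, and leaving out ACPC-NP week 2 replicate 3 were chosen with earlier results of these data known. From each list the text names, in order of p, up to 4 genes past the threshold at week 2, or the smallest p where none passed. Ass1, Asl, the succinate dehydrogenase subunits, Ptgs1 and Irf8 were named outside this rule, after their values were seen. Alternatives were DESeq2 1.42.0, voom with quality weights (limma 3.58.1), DESeq2's size factors in edgeR, no low-count filter, a replicate block, each library left out and, chosen after seeing the data, total-count scaling and the macrophage marker sum without Gpnmb. Promoter windows come from RefSeq (GRCr8).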

Additional observations from a re-analysis of the deposited data

How the results depend on the processing

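The comparisons are named here by their groups. Of 72 values of a gene in a comparison, recomputed under 6 alternative settings with all libraries kept, 385 kept their direction and side of the threshold, 33 gained a call, 1 lost it and 13 changed sign. With single libraries left out, 467 kept both, 25 gained a call, 6 lost it and 42 changed sign. DESeq2's size factors in edgeR and the absence of a low-count filter changed no call of the 6 genes. The causes of the changes were not tested.

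At week 2, for ACPC-NP against the CaP-PCL mean, edgeR called 590 genes, DESeq2 1013 (590 of them shared), voom 889 (485 shared) and the replicate block 239 (234 shared). For ACPC-NP against PCL the count rose from 0 to 632 with DESeq2, 309 with voom and 32 with total-count scaling, and the number of the 6 enzymes called from 0 to 4, 3 and 2. For ACPC-NP against CaP it rose from 0 to 595 with DESeq2 and 376 with voom, and for the enzymes from 0 to 4 and 3. At week 6, ACPC-NP against PCL went from 0 genes to 878 with DESeq2, 4056 with voom and 427 with the block. ACPC-NP against CaP went from 0 to 23 and 71 with DESeq2 and voom, and ACPC-NP against the CaP-PCL mean from 0 to 623, 3466 and, with the block, 49. Between weeks around ACPC-NP the count went from 1 to 792 with DESeq2, 1387 with voom and 0 with the block, and the enzymes from 0 to 4 with both DESeq2 and voom. Around CaP it went from 0 to 5 with DESeq2, and around PCL from 0 to 29 with DESeq2, 1745 with voom, and 1 each with the block and total-count scaling. Voom called 1 enzyme around PCL. For the change of the ACPC-NP difference between weeks the count went from 0 to 581 with DESeq2 and 1710 with voom, with 4 enzymes each.

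With the replicate number as a block, 3 of the 6 enzymes were called in ACPC-NP against the CaP-PCL mean at week 2, and Ptgs2 lost its call at 2.98 (adjusted p = 0.0686, edgeR). Whether the numbers pair the samples is not settled by these data. Deviations of 45 same-numbered pairs, within and across weeks, correlated at -0.327 to 0.420, with 18 over 0.1. Their median was 0.026, against -0.0085 for pairs of unlike number, and 8 of 18 libraries correlated best with their own number. Total-count scaling moved the median of all genes in ACPC-NP against the CaP-PCL mean at week 2 from -0.02 to -0.16.

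Sign changes with all libraries kept concerned values below the threshold. With voom, Odc1 came to -0.16 for ACPC-NP against CaP and -0.068 against the CaP-PCL mean at week 2, and 0.12 between weeks around ACPC-NP. Also with voom, Ptgs2 for CaP against PCL came to 0.16 at week 2 and 0.24 at week 6, and for ACPC-NP against the CaP-PCL mean at week 6 Arg2 came to 0.077 and Nos2 to 0.16. With total-count scaling, Odc1 at week 2 came to -0.14 against CaP and -0.042 against the CaP-PCL mean, and Nos2 to -0.047 for ACPC-NP against PCL at week 6. With the block at week 6, Arg2 and Nos2 came to -0.049 and -0.021 for ACPC-NP against PCL, and Nos2 to -0.0086 for CaP against PCL.

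With each library left out in turn, ACPC-NP against PCL at week 2 gave 0 to 877 genes and 0 to 4 enzymes, ACPC-NP against CaP 0 to 893 and 0 to 5, and ACPC-NP against the CaP-PCL mean 10 to 1363 and 2 to 5. At week 6, ACPC-NP against PCL gave 0 to 1787 genes and against the CaP-PCL mean 0 to 1335, the highest in both without PCL replicate 1, and CaP against PCL 0 to 1. Between weeks, ACPC-NP gave 0 to 882 genes and 0 to 4 enzymes, PCL 0 to 52 genes, and the change of the ACPC-NP difference 0 to 919 genes and 0 to 4 enzymes. The values that changed sign had these ranges of log2 difference. At week 2, for ACPC-NP against PCL Arg2 ran from -0.50 to 1.88 and Odc1 from -0.021 to 0.39, and Odc1 against CaP from -0.22 to 0.18 and against the CaP-PCL mean from -0.12 to 0.29. For CaP against PCL at week 2, Nos2 ran from -0.77 to 0.10, Irg1 from -0.17 to 0.74 and Ptgs2 from -0.58 to 0.52. At week 6, for ACPC-NP against PCL, Arg1 ran from -0.010 to 1.37, Arg2 from -0.27 to 0.67 and Nos2 from -0.30 to 0.52. Against CaP, Arg2 ran from -0.63 to 0.0045 and Nos2 from -0.28 to 0.11, and against the CaP-PCL mean they ran from -0.30 to 0.17 and from -0.19 to 0.22. For CaP against PCL at week 6, Nos2 ran from -0.21 to 0.61, Irg1 from -0.53 to 0.17, Ptgs2 from -0.43 to 0.34 and Odc1 from -0.17 to 0.046. Between weeks, Arg2 around ACPC-NP ran from -2.31 to 0.080 and Odc1 from -0.29 to 0.13, Ptgs2 around CaP from -0.21 to 0.71 and Odc1 from -0.042 to 0.13, and around PCL Arg2 from -1.11 to 0.012, Nos2 from -0.59 to 0.35 and Ptgs2 from -0.21 to 0.88.

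The main limits are 3 libraries per group, the large spread among the ACPC-NP libraries of week 2, and the low counts of Arg2, with 10 to 250 reads per library.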

Other observations

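Some rows of the count table were far below their usual partners in these tissues. Col1a2, the second chain of type I collagen, had 1 to 14 reads per library while Col1a1 had 102355 to 643110. Ltf, the lactoferrin of neutrophil granules, had 0 to 12 reads while Mpo, another granule gene, had 9379 to 57429. Gata1, an erythroid factor, was listed at 0 in all 18 libraries. How reads were assigned to these rows was not tested.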
